A study of Mus musculus with 22 samples.

Results

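The creatine cycle and the creatine kinases were followed through 8 genes, *Ckb*, *Ckm*, *Ckmt1*, *Ckmt2*, *Gatm*, *Gamt*, *Slc6a8* and *Alpl*, in the brown adipose tissue (BAT) of CPEB2-wild-type (WT) and CPEB2-knockout (KO) mice. They were chosen by name as the enzymes and the transporter of creatine metabolism, so that *Ckb* and *Alpl*, which belong to the creatine cycle of fat cells, could be set beside the muscle isoforms *Ckm* and *Ckmt2*. They are 8 of the 55487 genes counted, and each was counted in all 22 libraries. The filter on low counts kept all 8 in the untreated cohort and 6 in the cohort that received virus, where *Ckmt1* and *Ckmt2* had too few reads to be tested.

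CPEB2 is an RNA-binding protein of the cytoplasmic polyadenylation element-binding family, and the KO lacks it in every tissue. All mice were C57BL/6 and are given as male in the labels. There were 5 WT and 5 KO mice without virus, the untreated cohort, aged 21 to 25 weeks. In the other cohort, 3 WT and 3 KO mice received an adeno-associated virus (AAV) carrying GFP (WT + AAV-GFP, KO + AAV-GFP), and 3 WT and 3 KO mice received one carrying PRDM16 with a Flag tag (WT + AAV-PRDM16, KO + AAV-PRDM16). PRDM16 is a transcriptional regulator of brown fat identity. Mice were injected at 16 weeks with 20000000000 vector genomes in 30 µl, 10 µl per site, in the interscapular BAT, and BAT was collected 9 weeks later. A bulk library averages over all cells of the depot, whether or not the virus reached them. The 2 cohorts were counted in separate tables, and no test was run across them.

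On build GRCm38, *Ckb* lies at chr12:111669361-111672338, *Ckm* at chr7:19404776-19422841, *Ckmt1* at chr2:121357714-121363737, *Ckmt2* at chr13:91853387-91876885, *Gatm* at chr2:122594467-122611303, *Gamt* at chr10:80258151-80261012, *Slc6a8* at chrX:73673150-73682502 and *Alpl* at chr4:137741733-137796384. *Ckm*, *Ckmt1* and *Ckmt2* each overlap a gene on the other strand (*A930016O22Rik*, *Strc* and *1700119I11Rik*), and since the use of strand in counting is not given in the sources used here, their reads cannot be told apart from those of the partner.

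Creatine carries high-energy phosphate. Creatine is made from arginine and glycine by GATM, which forms guanidinoacetate, and by GAMT, which methylates it, and cells take it up from blood through the transporter SLC6A8. Creatine kinases pass phosphate between ATP and creatine. CKB is the cytosolic isoform of brain and many other tissues, CKM that of striated muscle, and CKMT1 and CKMT2 the mitochondrial isoforms, with CKMT2 typical of striated muscle. In thermogenic fat a cycle of creatine phosphorylation and phosphocreatine hydrolysis spends ATP and gives heat apart from UCP1. CKB and the alkaline phosphatase ALPL (tissue-nonspecific alkaline phosphatase) have been described as the kinase and the phosphatase of that cycle.

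Because *Ckm* and *Ckmt2* moved together from library to library while *Ckb* and *Alpl* did not move with them, the promoters of these 4 genes are shown. Each run holds the 250 bases before a RefSeq transcript start (build GRCm38.p6), 5′ to 3′ on the strand of the gene. Capitals mark E-boxes (CANNTG, the same on both strands, bound among others by the myogenic factors) and TATA letters (TATAAA or TATATA on either strand).
Ckb promoter, chr12:111672339-111672588, minus strand: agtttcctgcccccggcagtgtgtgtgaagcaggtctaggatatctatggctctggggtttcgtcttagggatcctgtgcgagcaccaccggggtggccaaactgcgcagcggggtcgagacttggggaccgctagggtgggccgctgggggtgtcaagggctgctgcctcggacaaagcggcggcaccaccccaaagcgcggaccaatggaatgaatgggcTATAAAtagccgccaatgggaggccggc
Ckm promoter, chr7:19410844-19411093, plus strand: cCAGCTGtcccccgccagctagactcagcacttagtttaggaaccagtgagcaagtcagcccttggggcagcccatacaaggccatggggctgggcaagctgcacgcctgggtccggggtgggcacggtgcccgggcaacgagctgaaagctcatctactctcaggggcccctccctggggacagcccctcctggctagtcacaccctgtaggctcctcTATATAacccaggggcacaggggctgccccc
Ckmt2 promoter, chr13:91876886-91877135, minus strand: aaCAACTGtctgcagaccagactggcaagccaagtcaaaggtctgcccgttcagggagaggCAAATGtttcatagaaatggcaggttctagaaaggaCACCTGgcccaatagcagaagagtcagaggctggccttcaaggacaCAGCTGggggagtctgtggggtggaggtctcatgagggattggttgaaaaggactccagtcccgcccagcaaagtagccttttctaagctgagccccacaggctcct
Alpl promoter, upstream start, chr4:137796385-137796634, minus strand: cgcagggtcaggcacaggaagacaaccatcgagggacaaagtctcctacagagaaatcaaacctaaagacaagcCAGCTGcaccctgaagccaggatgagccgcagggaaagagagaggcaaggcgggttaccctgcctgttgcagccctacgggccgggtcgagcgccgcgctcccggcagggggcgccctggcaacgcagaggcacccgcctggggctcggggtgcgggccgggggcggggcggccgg
RefSeq starts were found for 7 of the 8 genes, with 2 each for *Alpl* and *Ckmt1*, and *Slc6a8* was not matched. *Ckmt2* held 4 E-boxes and no TATA letters, and *Ckm* held 1 E-box and TATA letters that began 31 bases before its start. *Ckb* held no E-box and TATA letters that began 28 bases before its start. The upstream *Alpl* start had 1 E-box and no TATA letters, and the downstream one (chr4:137766476-137766725) had 2 E-boxes and TATA letters. Of 32851 mouse promoter windows of this length, 66.2% held at least 1 E-box, 12.2% at least 3, and 15.6% TATA letters, and a match in letters does not show that a factor binds there.

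Untreated libraries held 55320927 to 162721202 counts each, and AAV libraries 61636889 to 143005309. Brown fat markers were present in every library, with *Ucp1*, the uncoupling protein of brown fat, at 1444 to 6700 CPM (counts per 1000000 counts of the TMM-scaled library) in untreated and 1184 to 3531 CPM in AAV libraries. *Cpeb2* was at 7.69 to 14.3 CPM in untreated WT and 2.10 to 11.7 CPM in untreated libraries labelled KO, of which KO 1 lay within the WT range, and at 10.5 to 14.0 CPM in WT and 4.33 to 5.55 CPM in KO of the AAV cohort. *Prdm16* was at 23.9 to 40.2 CPM with AAV-GFP and 45.9 to 128 CPM with AAV-PRDM16. Some untreated libraries stood apart. Transcripts of the Y chromosome were nearly absent, at no more than 1.17 CPM in sum, in WT 3 and 5 and KO 1, 3, 4 and 5, where *Xist* was at 104 CPM or more, although the labels call every mouse male. In the other 4 untreated libraries the Y-linked sum was 77.1 CPM or more, and in the AAV cohort it was 154 CPM or more. The summed level of 30 skeletal muscle genes, which do not include the creatine kinases, exceeded 1000 CPM in WT 3 and KO 1, 2 and 5 and ranged from 67.2 to 265 CPM in the other untreated libraries. Each library was 1 mouse, and the labels do not tie mice to litters or days.

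Levels of different genes were compared per kb of exon (CPM divided by the summed exon length). In the AAV cohort the order by mean level over 12 libraries was *Ckb* at 6.67, *Slc6a8* at 5.4, *Alpl* at 3.20, *Gamt* at 0.946 and *Gatm* at 0.569 CPM per kb, followed by *Ckm* at 0.306, *Ckmt2* at 0.0451 and *Ckmt1* at 0.00596 CPM per kb. This order pools the groups, and among groups it differed. In WT + AAV-GFP *Slc6a8* (6.27) was above *Ckb* (5.03 CPM per kb), in WT + AAV-PRDM16 *Alpl* (4.55) was above *Slc6a8* (4.48 CPM per kb), and 1 library, mouse 3 of KO + AAV-PRDM16, had *Ckb* at 16.2 CPM per kb. The synthesis enzymes lay below these 3 genes in the mean of each group. In the untreated cohort the same mean put *Ckm* first at 74.8 CPM per kb with an SD that exceeded it across mice, then *Ckmt2* at 19.4, *Ckb* at 17.8, *Alpl* at 5.27, *Slc6a8* at 4.18, *Gamt* at 1.99, *Gatm* at 0.792 and *Ckmt1* at 0.131 CPM per kb. *Ckm* and *Ckmt2* held the first places through the libraries rich in muscle transcripts. The median share of creatine kinase transcripts per kb, taken for each isoform apart, was 49.6% for *Ckb*, 43.1% for *Ckm* and 5.68% for *Ckmt2*. These medians do not describe a single library, and the share of *Ckb* ran from 3.35% to 99.4%.

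**Figure D1:**
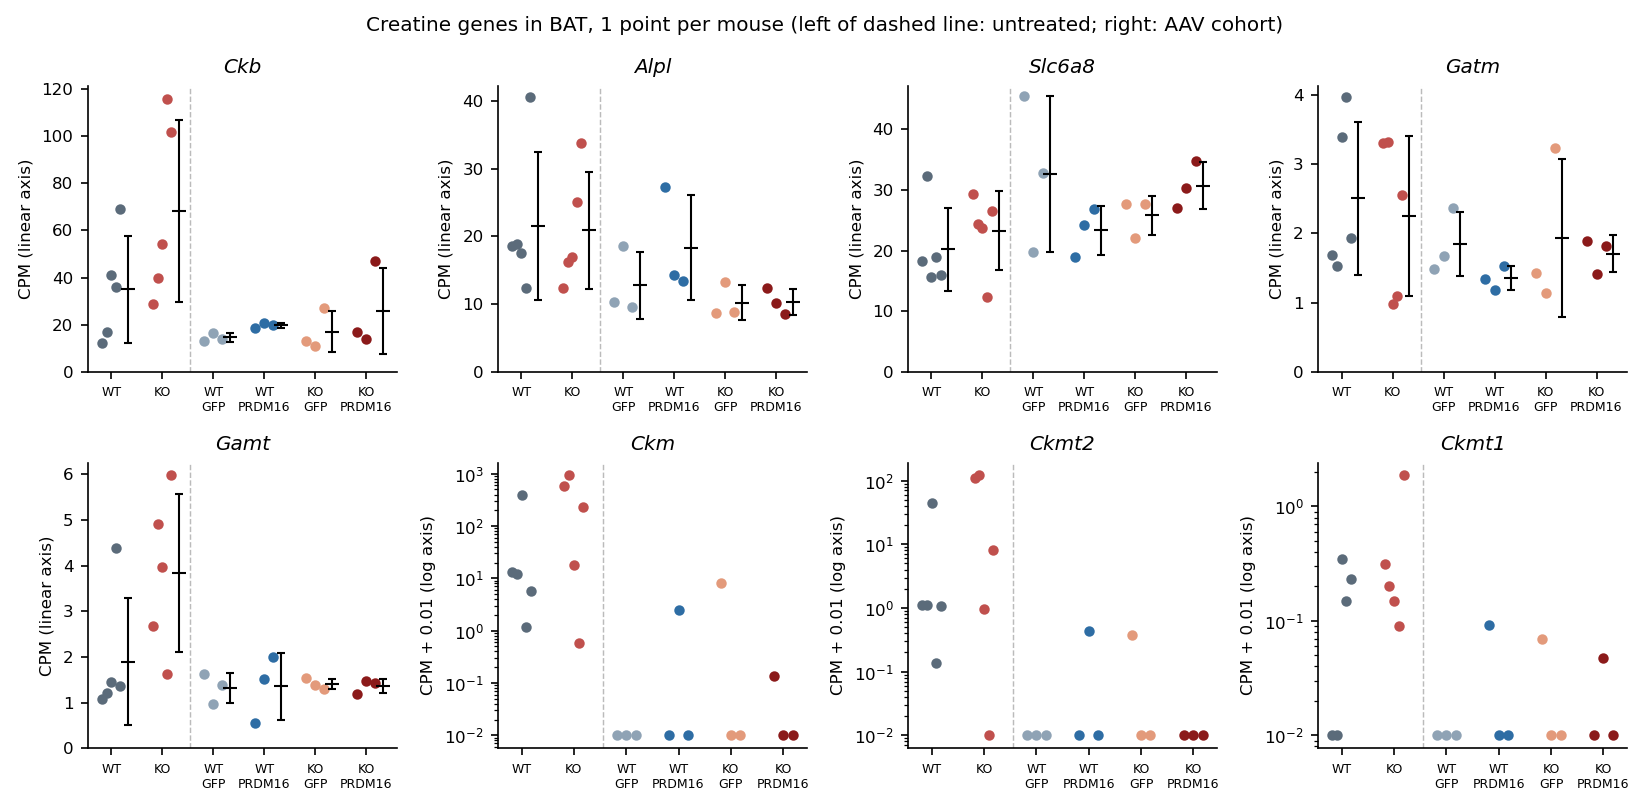
CPM of the 8 genes in each of 22 libraries, with 1 point per mouse, grouped by genotype and virus on the x axis. The y axis is linear for *Ckb*, *Alpl*, *Slc6a8*, *Gatm* and *Gamt*, with the mean and SD of each group as bars, and logarithmic after adding 0.01 CPM for *Ckm*, *Ckmt2* and *Ckmt1*, where points at the bottom are libraries with no read. *Ckm* spans 0.576 to 923 CPM in untreated mice, and *Alpl* 12.4 to 40.6 CPM.

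The comparison of untreated KO with WT mice asked which transcripts of BAT depend on CPEB2. None of the 8 genes passed an FDR of 0.05 by edgeR's quasi-likelihood test, nor did any of the 17869 genes tested, a background of 0.0%. DESeq2 called 0 genes as well. Of the 17869 genes, 2836 had an unadjusted p under 0.05 by edgeR, 3493 by DESeq2 and 2491 by limma-voom. Among the members the count was 0 of 8 by edgeR, 2 of 8 by DESeq2 (*Ckb* and *Gamt*, both higher in KO) and 1 of 8 by limma-voom (*Ckb*). With 8 members, nothing was read from these counts. The log2 fold change (log2FC) by edgeR was positive for 6 and negative for 2, with a median of 0.99 beside 0.04 over all genes tested. The median of the 8 was 1.07 by DESeq2 and 0.15 by limma-voom. No gene of the 8 had WT and KO libraries that did not overlap, against 1.4% of all genes tested.

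*Ckb*, the kinase of the fat-cell cycle, was at 12.1, 17.0, 41.0, 35.9 and 69.0 CPM in WT mice 1 to 5. In the libraries labelled KO 1 to 5 it was at 28.9, 39.9, 54.1, 116 and 102 CPM. KO 4 and 5 lay above every WT library, and KO 1, 2 and 3 lay within the WT range. The mean was 35.0 ± 22.6 CPM (SD, n = 5) in WT and 68.1 ± 38.6 CPM (SD, n = 5) in KO, a log2FC of 0.96 (SE 0.50, 95% confidence interval -0.11 to 2.04, edgeR FDR = 0.339). An exact permutation test of mean log2 CPM, two-sided, gave p = 0.127, where the smallest possible was 0.00794.

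By median, *Ckb* was higher in the untreated libraries without Y-linked transcripts (61.6 CPM) than in those with them (26.5 CPM). It was at 12.1 to 39.9 CPM in the 4 libraries with Y-linked transcripts and at 28.9 to 116 CPM in the 6 without them, of which 4 were labelled KO. Among libraries with Y-linked transcripts, the 1 KO library (39.9 CPM) was above the 3 WT libraries (12.1 to 35.9 CPM), and 1 library allows no estimate of its own spread. Among those without, 4 KO libraries at 28.9 to 116 CPM overlapped 2 WT libraries at 41.0 and 69.0 CPM. The log2FC of *Ckb* fell to 0.61 (edgeR FDR = 0.596) once Y-linked transcripts, present or absent, entered the fit. It was 0.56 (edgeR FDR = 0.867) without WT 1 and 2, the untreated libraries lowest in *Ckb*. The summed CPM of 14 brown fat genes was 8797 to 14032 in WT 3 and 5 and KO 3, 4 and 5. These were the untreated libraries with the most *Ckb*, and the sum was 4729 to 6715 CPM in the others. What part any of these differences has in the *Ckb* values was not tested.

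**Figure D2:**
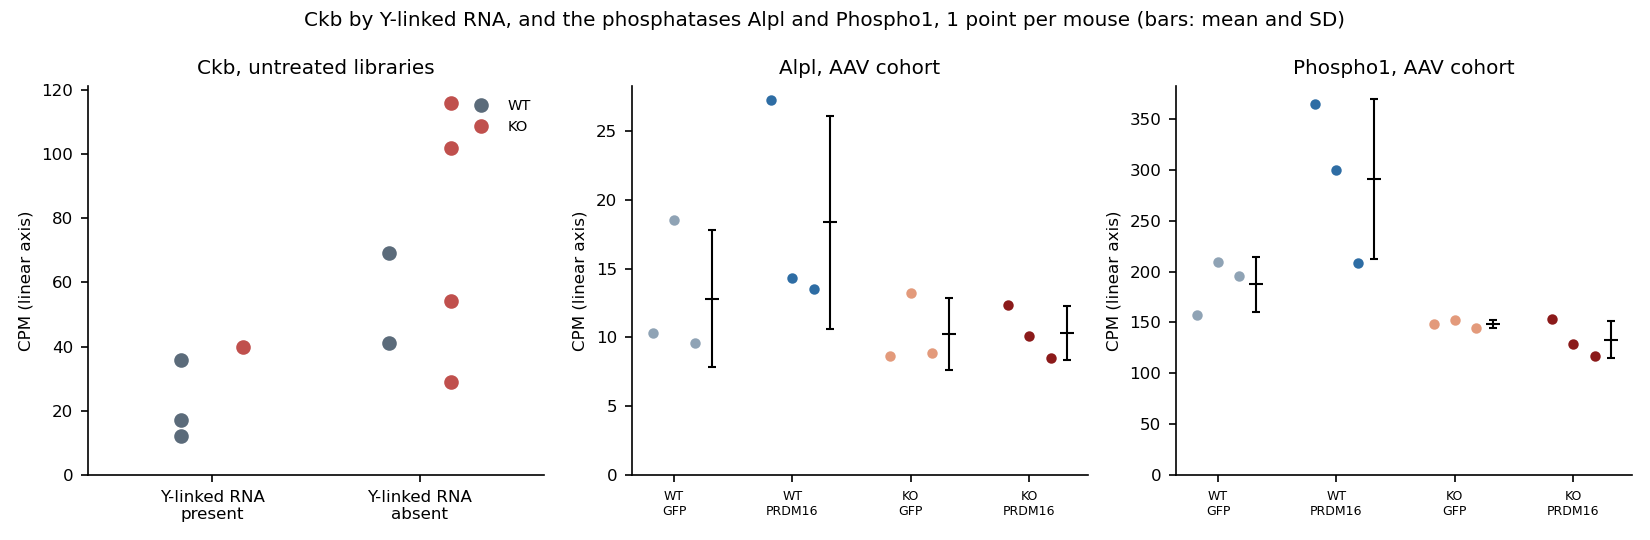
CPM on linear axes, 1 point per mouse. The left panel splits *Ckb* of the untreated libraries by the presence of Y-linked transcripts, with genotype by colour, and the highest values, 116 and 102 CPM, are KO libraries without them. The other panels give *Alpl* and *Phospho1* in the 4 AAV groups with the mean and SD as bars, and *Phospho1* in all 6 KO libraries lies below all 6 WT libraries. The share of all genes with such a separation is not given here.

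*Alpl*, the phosphatase, was at 18.6, 18.9, 17.6, 12.4 and 40.6 CPM in untreated WT mice and at 12.4, 16.2, 16.9, 25.1 and 33.8 CPM in KO. The KO range lay within the WT range. The log2FC was -0.05 (SE 0.35, 95% confidence interval -0.82 to 0.72, edgeR FDR = 0.948), and its sign turned under other scalings, with 0.03 by RLE scaling and 0.07 by upper-quartile scaling. WT 5 was the highest library of the cohort for *Alpl* and the highest WT library for *Ckb*.

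*Slc6a8*, the transporter, varied least of the 8 genes, with an SD of 0.44 in log2 CPM over the untreated mice. It was at 18.3, 32.3, 15.6, 18.9 and 16.0 CPM in WT and at 29.3, 24.4, 23.7, 12.4 and 26.6 CPM in KO, with a log2FC of 0.20 (SE 0.28, 95% confidence interval -0.41 to 0.82, edgeR FDR = 0.698). The groups overlapped, and 4 of the 5 KO libraries lay above 4 of the 5 WT libraries. The log2FC was -0.25 without the 4 libraries richest in muscle transcripts, an alternative added after the data were seen.

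The synthesis enzymes were low. *Gatm*, the amidinotransferase of the first step, was at 1.69, 1.52, 3.39, 3.97 and 1.94 CPM in WT and at 3.30, 3.32, 0.980, 1.09 and 2.56 CPM in KO (log2FC -0.15, SE 0.44, edgeR FDR = 0.865). Without the 4 libraries richest in muscle transcripts, the log2FC was -1.15 (edgeR FDR = 0.304). *Gamt*, the methyltransferase of the second step, was at 1.08, 1.22, 1.45, 4.38 and 1.37 CPM in WT and at 2.69, 4.91, 3.96, 1.63 and 5.99 CPM in KO. Each KO library was above WT 1, 2, 3 and 5, and WT 4 was above 3 of the 5 KO libraries. Its log2FC was 1.01 (SE 0.47, 95% confidence interval -0.02 to 2.04, edgeR FDR = 0.316), with p = 0.0635 by the exact permutation test, two-sided. It was 0.47 (edgeR FDR = 0.755) without the 4 libraries richest in muscle transcripts and 1.27 (edgeR FDR = 0.576) with the Y-linked covariate.

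*Ckm*, the kinase of striated muscle, was at 13.0, 12.1, 393, 1.15 and 5.70 CPM in untreated WT mice and at 586, 923, 17.6, 0.576 and 227 CPM in KO. Each group held libraries that were almost free of *Ckm* and libraries in which it was abundant. *Ckmt2*, its mitochondrial partner in muscle, was at 1.09, 1.09, 43.7, 0.125 and 1.06 CPM in WT and at 111, 120, 0.957, 0.0 and 8.02 CPM in KO. The log2FC was 2.04 (SE 1.6, edgeR FDR = 0.483) for *Ckm* and 2.36 (SE 1.72, edgeR FDR = 0.456) for *Ckmt2*. Without WT 3 these were 5.45 and 5.83, and without the 4 libraries richest in muscle transcripts 0.19 and -0.79. In bulk tissue, more cells of a type and more RNA per cell cannot be told apart.

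The muscle isoforms ranked with the other skeletal muscle transcripts of the same library. KO 2, KO 1, WT 3 and KO 5, in this order, held the most of the 30 muscle genes, at 9223, 8354, 4407 and 1377 CPM, and the same order held for *Ckm* and for *Ckmt2*. KO 4 was lowest in all 3 measures. *Ckm* came to between 7.01% and 16.5% of the muscle sum in the 4 richest libraries and to between 0.856% and 8.49% in the other untreated libraries. There were 3.53 to 19.0 *Ckmt2* reads per 100 *Ckm* reads in the 4 richest libraries. All 30 muscle genes had a positive log2FC in untreated KO against WT, and 0 of 30 passed an FDR of 0.05 by edgeR, with a median of 2.07.

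*Ckb* did not follow that order. In the 4 libraries richest in muscle transcripts it was at 39.9, 28.9, 41.0 and 102 CPM, and KO 4, the library with the least muscle signal, had the highest *Ckb* of the cohort. The exon lengths of *Ckb* and *Ckm* are nearly the same (2895 and 2913 bases), and the log2 ratio of *Ckm* to *Ckb* in CPM lay between -4.94 and 3.26 in WT mice and between -7.60 and 4.53 in KO mice, and was above 0 in 2 of 5 WT and 3 of 5 KO libraries. The mean ratio differed by 1.29 between KO and WT, within an SD of 3.23 in WT and 5.03 in KO.

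**Figure D3:**
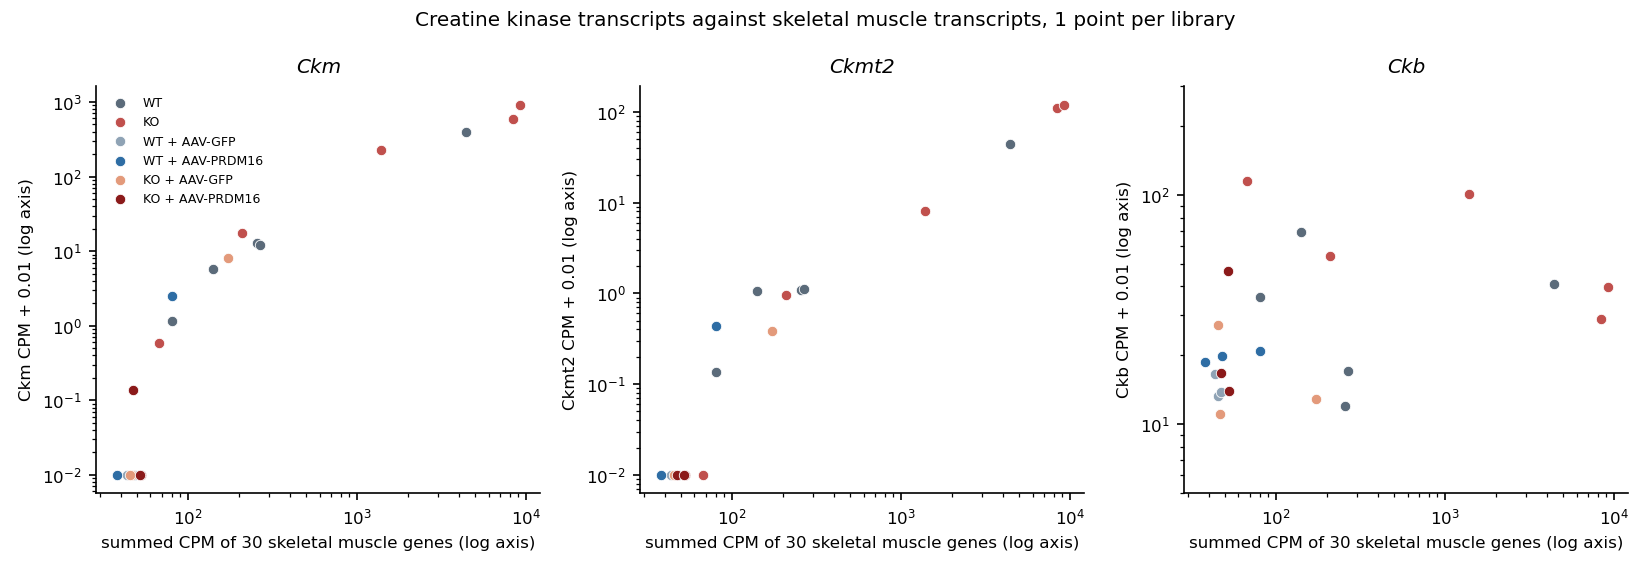
CPM plus 0.01 of *Ckm*, *Ckmt2* and *Ckb* against the summed CPM of 30 skeletal muscle genes, both on log axes, with 1 point per library of both cohorts and group by colour. In the untreated libraries *Ckm* and *Ckmt2* are highest where the muscle sum is highest, up to 9223 CPM, while 9 of 12 AAV libraries have no *Ckm* read and *Ckb* spreads between 11.1 and 116 CPM with no such order.

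The share of each isoform among creatine kinase transcripts per kb showed the same split. *Ckb* made up 3.35% to 99.4% of the 4 isoforms in the untreated libraries and *Ckm* 0.491% to 77.0%. *Ckm* was above 50% in 4 of 10 untreated libraries, those richest in muscle transcripts. *Ckmt2* reached 26.2% in KO 1 and *Ckmt1* no more than 0.623% in any library. *Ckmt1*, the ubiquitous mitochondrial isoform, had 0 to 31 reads in 9 of the 10 untreated libraries and 148 reads (1.85 CPM) in KO 5, and its log2FC of 1.90 (SE 1.23, edgeR FDR = 0.408) fell to 0.38 without that library.

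**Figure D4:**
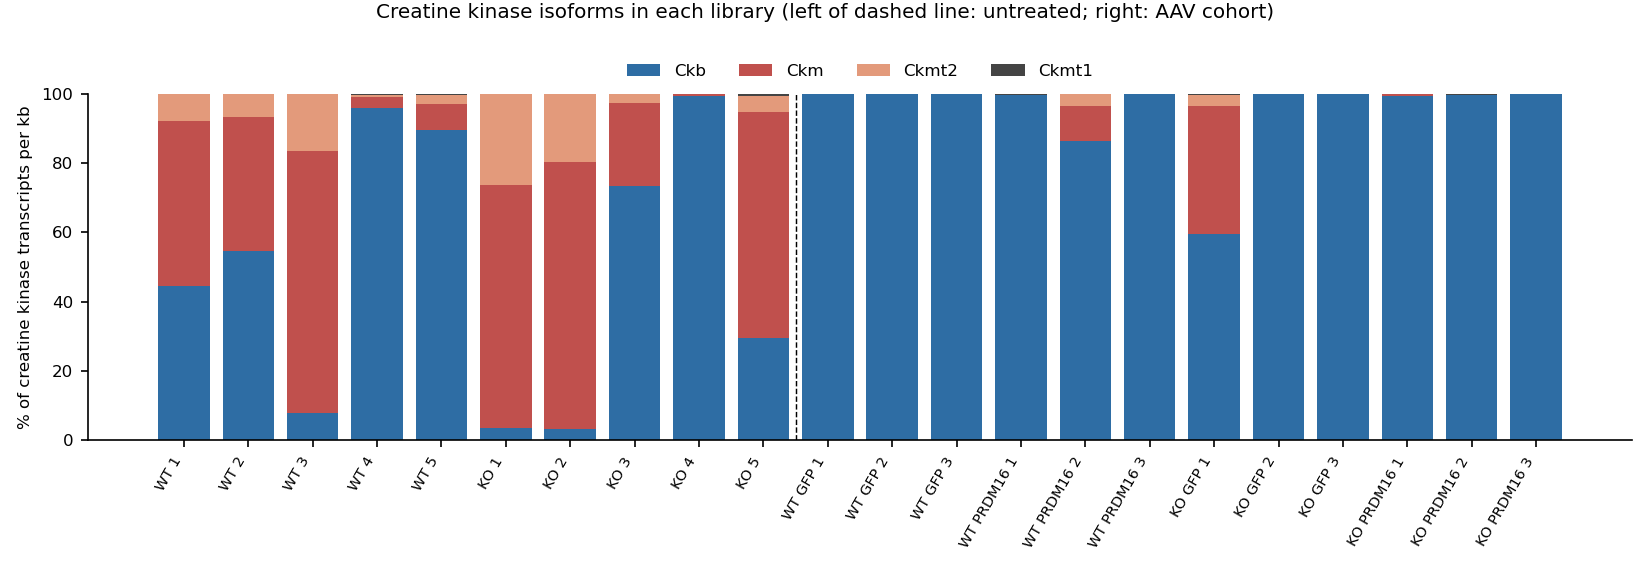
Share in percent of *Ckb*, *Ckm*, *Ckmt2* and *Ckmt1* among creatine kinase transcripts, each as CPM per kb of exon, in stacked bars for the 10 untreated and 12 AAV libraries. *Ckb* makes up at least 59.4% of the bar in every AAV library and as little as 3.35% in the untreated cohort.

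In the AAV cohort the muscle isoforms were nearly missing. *Ckm* had no read in 9 of 12 libraries, where a count of 0 allows up to 3 counts, or 0.0203 to 0.0501 CPM. It had 542 reads (8.07 CPM) in mouse 1 of KO + AAV-GFP, 225 reads (2.49 CPM) in mouse 2 of WT + AAV-PRDM16 and 13 reads (0.129 CPM) in mouse 1 of KO + AAV-PRDM16. *Ckmt2* had 25 and 39 reads in the first and the second of these libraries and none in the other 10, and *Ckmt1* had at most 7 reads in any. The first and second libraries also had the highest sums of the 30 muscle genes, 172 and 80.5 CPM, against 37.8 to 52.5 CPM in the others. Of these 30 genes *Myl1* alone, a myosin light chain, was at 28.0 to 38.6 CPM over the 12 AAV libraries. It made up most of the sum in the others. No fold change is given for *Ckm* here, since the libraries of WT + AAV-GFP were all at 0 and 1 library set each other group. The median share of *Ckb* among the creatine kinases was 100%.

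The AAV groups compared KO with WT under either virus, and AAV-PRDM16 with AAV-GFP in either genotype. No member passed an FDR of 0.05 by edgeR in any of the 8 contrasts of this cohort, nor under DESeq2 or limma-voom. The background of calls over 18899 genes was 0.0529% for KO against WT with AAV-GFP, 0.0476% with AAV-PRDM16, 0.0% for AAV-PRDM16 against AAV-GFP in WT, 0.0% in KO, 0.00529% for KO + AAV-PRDM16 against WT + AAV-GFP, 2.18% for genotype averaged over both viruses, 0.037% for virus averaged over both genotypes and 0.0% for their interaction. The counts behind 2.18% and 0.037%, 412 and 7 genes, ran from 89 (without mouse 1 of KO + AAV-PRDM16) to 590 (without mouse 1 of KO + AAV-GFP) and from 0 to 352 (without mouse 1 of WT + AAV-GFP) when 1 library was left out. At an unadjusted p under 0.05, *Alpl* was lower in KO with AAV-PRDM16 and in KO over both viruses, by edgeR and by DESeq2 but not by limma-voom. In these comparisons 2594 and 3458 of the 18899 genes had such a p by edgeR, and 2838 and 3713 by DESeq2. *Slc6a8* had an unadjusted p under 0.05 in the interaction by DESeq2 alone, as did 698 of all genes. *Ckm* had one by edgeR alone for KO against WT with AAV-GFP and in the interaction, where its libraries at 0 set the fit. The counts over all genes there were 1734 and 603. With 6 members tested, nothing was read from these p-values.

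Libraries of the groups did not overlap for 0 of 6 tested members for KO against WT with AAV-GFP (13.4% of all genes tested) and for 2 of 6 with AAV-PRDM16 (22.8%), *Slc6a8* higher and *Alpl* lower in KO. For AAV-PRDM16 against AAV-GFP this held for 1 of 6 in WT (14.2%), *Ckb* higher with AAV-PRDM16, and for 0 of 6 in KO (9.43%). With 6 members, nothing was read from these counts.

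In WT mice *Alpl* was at 10.3, 18.5 and 9.58 CPM with AAV-GFP, and 27.3, 14.3 and 13.5 CPM with AAV-PRDM16. In KO mice it was at 8.63, 13.2 and 8.84 CPM with AAV-GFP, and 12.3, 10.1 and 8.47 CPM with AAV-PRDM16. All KO + AAV-PRDM16 libraries lay below all WT + AAV-PRDM16 libraries, and with AAV-GFP the genotypes overlapped. The log2FC of KO against WT was -0.83 (SE 0.31, 95% confidence interval -1.52 to -0.15, edgeR FDR = 0.279) with AAV-PRDM16 and -0.32 (SE 0.31, edgeR FDR = 0.850) with AAV-GFP. The exact permutation test, two-sided, gave p = 0.1 for the first, the smallest that 3 against 3 allows. Averaged over both viruses it was -0.58 (SE 0.22, 95% confidence interval -1.06 to -0.09, edgeR FDR = 0.186), with p = 0.065 by the exact permutation test within viruses. The effect of AAV-PRDM16 on *Alpl* was 0.52 in WT (edgeR FDR = 0.791) and 0.01 in KO, and the interaction of -0.51 had an unadjusted p of 0.274 (edgeR FDR = 1.0). KO + AAV-PRDM16 differed from WT + AAV-GFP by -0.31 (SE 0.31, edgeR FDR = 0.890). Mouse 1 of WT + AAV-PRDM16, at 27.3 CPM, weighed on several of these values. Without it the log2FC of KO against WT was -0.43 (edgeR FDR = 0.726) with AAV-PRDM16 and -0.38 (edgeR FDR = 0.410) averaged over both viruses, the effect of AAV-PRDM16 in WT was 0.12 and the interaction was -0.11.

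In WT mice *Ckb* was at 13.3, 16.5 and 13.9 CPM with AAV-GFP, and 18.6, 20.8 and 19.8 CPM with AAV-PRDM16, which did not overlap. In KO it was at 12.9, 11.1 and 27.2 CPM with AAV-GFP and at 16.7, 14.0 and 46.9 CPM with AAV-PRDM16, where mouse 3 of each group stood above the other 2. The log2FC of AAV-PRDM16 against AAV-GFP was 0.44 in WT (SE 0.41, 95% confidence interval -0.46 to 1.34, edgeR FDR = 0.887) and 0.59 in KO (SE 0.41, edgeR FDR = 1.0). The exact permutation test, two-sided, gave p = 0.1 in WT, the smallest possible, and p = 0.5 in KO. Without mouse 3 of KO + AAV-PRDM16 the value in KO was -0.15. For KO against WT the log2FC of *Ckb* was 0.23 with AAV-GFP and 0.38 with AAV-PRDM16 (edgeR FDR = 0.938 and 0.739), and leaving out mouse 3 of the KO group in question turned them to -0.28 and -0.36. The average over viruses was 0.31 (edgeR FDR = 0.632), the average over genotypes 0.52 (edgeR FDR = 0.715), and the interaction 0.15 (edgeR FDR = 1.0). KO + AAV-PRDM16 exceeded WT + AAV-GFP by 0.82 (SE 0.42, 95% confidence interval -0.08 to 1.73, edgeR FDR = 0.674). Without mouse 3 of KO + AAV-PRDM16 that value was 0.075, and the average over genotypes was 0.14.

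*Slc6a8* with AAV-GFP was at 45.4, 19.8 and 32.8 CPM in WT mice, and 27.8, 22.1 and 27.7 CPM in KO mice, which overlapped. With AAV-PRDM16 it was at 18.9, 24.2 and 26.8 CPM in WT mice, and 27.0, 30.3 and 34.7 CPM in KO mice, each above every WT library. The log2FC of KO against WT was -0.34 with AAV-GFP (SE 0.24, edgeR FDR = 0.747) and 0.40 with AAV-PRDM16 (SE 0.24, edgeR FDR = 0.511), neither past the threshold. Leaving out mouse 1 of WT + AAV-GFP brought the first to -0.026 and leaving out mouse 2 to -0.60, and without mouse 1 of WT + AAV-PRDM16 the second was 0.26. The interaction was 0.73 (SE 0.34, unadjusted p = 0.0533, edgeR FDR = 1.0). Averaged over viruses the genotypes differed by 0.03, and averaged over genotypes the viruses by -0.12.

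*Gatm* stayed between 1.13 and 3.23 CPM and *Gamt* between 0.562 and 1.99 CPM over the 12 AAV libraries. Averaged over viruses, KO differed from WT by 0.20 for *Gatm* (95% confidence interval -0.35 to 0.75) and by 0.04 for *Gamt* (95% confidence interval -0.54 to 0.62). AAV-PRDM16 differed from AAV-GFP by -0.32 for *Gatm* (95% confidence interval -0.87 to 0.23) and by -0.00 for *Gamt* (95% confidence interval -0.58 to 0.58). The means of the AAV groups lay between 1.33 and 1.41 CPM for *Gamt*, beside 1.90 CPM in WT and 3.84 CPM in KO of the untreated cohort, which was counted in another table.

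**Figure D5:**
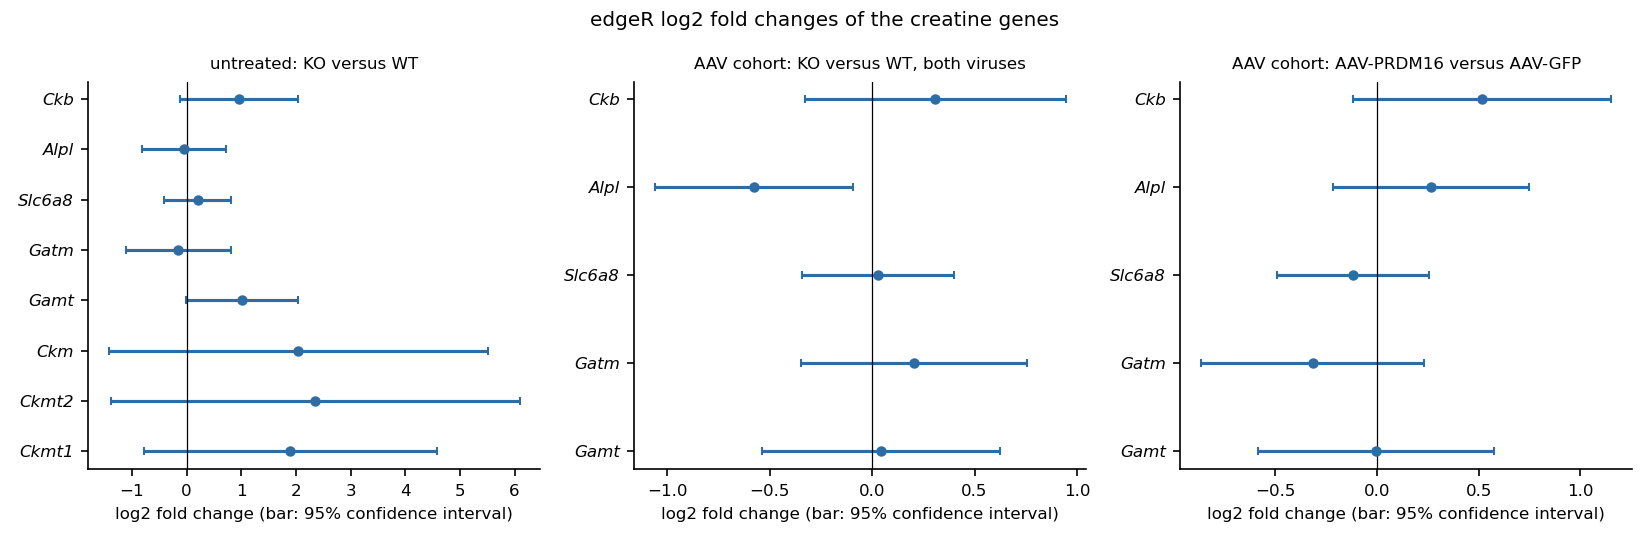
log2FC by edgeR with 95% confidence intervals for the 8 genes in untreated KO against WT and for the 5 genes with reads in all AAV libraries, for genotype averaged over both viruses and for virus averaged over both genotypes. The x axis is log2FC, and intervals span 0 except for *Alpl* in AAV KO against WT, -1.06 to -0.09 before adjustment over all genes.

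The genes that feed the pathway were read from lists. Of the genes listed under methyl donor supply (12 listed, 10 tested in each cohort), 0 passed an FDR of 0.05 in any of the 9 comparisons by edgeR. The list was drawn around the methyl group that GAMT uses, and being listed does not show that a gene supplies it. The gene with the most reads was *Ahcyl1*, a homologue of the enzyme that hydrolyses S-adenosylhomocysteine, at 176 to 791 CPM in untreated and 420 to 705 CPM in AAV libraries, followed by *Mat2a*, which makes S-adenosylmethionine. Their median log2FC was -0.24 in untreated KO against WT and 0.04 in the AAV cohort over both viruses, beside 0.04 and 0.01 over all genes tested.

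Of the arginine and glycine supply genes, 11 of 12 passed the filter without virus and 10 with it. A single gene was called, *Shmt1*, the cytosolic serine hydroxymethyltransferase that interconverts serine and glycine. It was lower in KO averaged over both viruses, with a log2FC of -0.34 (SE 0.07, edgeR FDR = 0.0390). It was at 29.3 to 32 CPM in the 6 WT and at 20.8 to 27.0 CPM in the 6 KO libraries of the AAV cohort, with no overlap. These are the libraries that gave the call, and the share of all genes without overlap is not given here. The *Shmt1* call was lost with 10 of the 12 AAV libraries left out in turn (edgeR FDR up to 0.118), and it held in the other 2 fits, those lacking KO + AAV-GFP mouse 1 and KO + AAV-PRDM16 mouse 2. In the untreated cohort its log2FC was -0.02 (SE 0.36). The list's median was 0.47 in untreated KO and 0.04 in AAV KO.

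Of 12 genes of mitochondrial ATP export and phosphotransfer, which carry ATP and phosphate beside the creatine system, 11 had a negative log2FC in KO over both viruses, with a median of -0.12 beside 0.01 over all genes tested. In the untreated cohort 8 of 11 had a positive log2FC and 0 were called by edgeR. The genes with the most reads included *Slc25a4* and *Slc25a5*, carriers that exchange ADP and ATP across the inner mitochondrial membrane, at 190 to 272 and 171 to 217 CPM in the AAV libraries.

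The phosphatases related to *Alpl* numbered 5, of which 3 had no read in any library. *Phospho1*, the phosphocholine and phosphoethanolamine phosphatase that acts with ALPL in bone mineralization, was lower in KO averaged over both viruses, with a log2FC of -0.73 (SE 0.13, edgeR FDR = 0.0195). WT libraries had 157, 210 and 196 CPM with AAV-GFP, and 365, 299 and 208 CPM with AAV-PRDM16. In KO it was at 149, 153 and 144 CPM with AAV-GFP and at 154, 129 and 117 CPM with AAV-PRDM16. All 6 KO libraries lay below all 6 WT libraries. The call rests on the same libraries, so the separation is no further support, and the share of all genes with it is not given here. With 3 against 3, the genotypes did not overlap for 13.4% of all genes tested with AAV-GFP and 22.8% with AAV-PRDM16. Of 12 fits that each lacked 1 AAV library, 3 lost the call (edgeR FDR up to 0.0545), those lacking WT + AAV-GFP mouse 2, WT + AAV-GFP mouse 3 and KO + AAV-GFP mouse 2, and the log2FC ran from -0.83 to -0.63. In untreated mice its log2FC was 0.34 (SE 0.42, edgeR FDR = 0.665).

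Other cell types were read from marker lists. In KO over both viruses, 3 of 14 brown fat genes were called, all lower, beside 2.18% of all genes tested. They were *Cox7a1* and *Cox8b*, subunits of cytochrome c oxidase, with log2FC of -0.63 and -0.66, and *Cidea*, a lipid droplet protein, with -0.39 (edgeR FDR = 0.0145, 0.0189 and 0.0378). In untreated KO, 8 of the 14 had a positive log2FC and 6 a negative one (median 0.14), and 0 were called. In 12 fits that each lacked 1 AAV library, *Cox7a1* stayed called in 12, *Cox8b* in 9 and *Cidea* in 4, with edgeR FDR up to 0.0493, 0.0655 and 0.106. Of 23 skeletal muscle genes tested in the AAV cohort, 1 was called in KO over both viruses, *Casq2*, the calsequestrin of cardiac and slow muscle. It was at 0.626 to 2.17 CPM in WT and 2.81 to 4.02 CPM in KO (log2FC 1.58, edgeR FDR = 0.0133, called in 12 of 12 such fits). The lists of smooth muscle (8 genes), neutrophil (12), endothelial (10), Schwann cell (9), lymphocyte (10) and Y-linked (4) genes had 0 calls in any comparison by edgeR. The lymphocyte sum was 1.79 to 21.3 CPM with AAV-GFP and 0.925 to 2.22 CPM with AAV-PRDM16, which moved with the virus, and its part in the *Ckb* difference was not tested. The endothelial sum was 398 to 641 CPM in KO and 406 to 534 CPM in WT of the AAV cohort, and the brown fat sum 4511 to 5500 and 4268 to 7881 CPM, and the smooth muscle sum was 93.1 to 106 CPM in KO + AAV-PRDM16 against 57.7 to 75.6 CPM in WT + AAV-PRDM16, with a positive log2FC for 8 of 8 genes (median 0.57). With AAV-GFP the smooth muscle sum was 82.1 to 99.2 CPM in KO and 68.8 to 83.2 CPM in WT. The part of these cell types in the *Alpl*, *Slc6a8* and *Phospho1* differences was not tested.

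The genes whose pattern was most like each member's were found by the lower of 2 Pearson correlations of log2 CPM, over the 10 untreated and over the 12 AAV libraries, among 13978 named genes tested in both. Libraries of a cohort share depth, scaling and cell makeup, so these are descriptions. For *Ckm* they were muscle genes, *Myh4* (r = 0.97 and 1.0), *Mybpc1* (0.95 and 0.97) and *Pvalb* (0.99 and 0.95). Since 9 of the 12 AAV libraries had no *Ckm* read, the second value of each pair rests on the few libraries with reads. For *Ckb* they were *Camk1* (0.93 and 0.91), *Selenom* (0.86 and 0.87) and *Phpt1* (0.86 and 0.86). For *Alpl* they were *Hip1r* (0.80 and 0.81), *Tst* (0.83 and 0.78) and *Hoxa7* (0.83 and 0.78). *Slc6a8* was nearest to *Kbtbd13* (0.79 and 0.78), *Gpr157* (0.75 and 0.79) and *Rph3al* (0.74 and 0.79), *Gatm* to *Zfp90* (0.83 and 0.82), *Ifit1* (0.85 and 0.80) and *Fcgr1* (0.79 and 0.82), and *Gamt* to *S100a11* (0.92 and 0.84), *S100a10* (0.80 and 0.84) and *Ten1* (0.85 and 0.80). *Ckmt2* was not tested in the AAV cohort and has no such value. No member was among another's nearest genes. Between *Ckb* and *Alpl*, r was 0.56 without virus and -0.15 with it, and *Alpl* and *Slc6a8* had -0.30 and -0.76.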

How the data were processed

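RNA-seq libraries of BAT from 22 mice in 6 groups were analysed, 10 untreated and 12 with AAV, 1 library per mouse. The authors deposited raw read counts per Ensembl gene, 1 table per cohort. According to the submitters' processing notes, reads were handled with bcl2fastq 2.20, Trimmomatic 0.36 and HISAT2 on GRCm38.p6. The counting tool, its annotation, its use of strand and the treatment of duplicate reads are not given in the sources used here. Symbols and exon lengths were taken from GENCODE M21.

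Each cohort was fitted separately with edgeR 4.0.16 (R 4.3.3) by TMM scaling, filterByExpr and the quasi-likelihood test, with Benjamini-Hochberg adjustment over all 17869 or 18899 genes tested and an FDR threshold of 0.05. The AAV cohort was 1 fit over 4 groups with 8 contrasts. CPM are counts per 1000000 counts of the TMM-scaled library, and log2 CPM used a prior count of 2. Single genes were also compared by exact permutation of libraries, two-sided. Intervals for counts of 0 cover counting error only. DESeq2 1.42.0 and limma 3.58.1 (voom with quality weights), other scalings and filters, left-out libraries and a replicate block served as alternatives. The test scripts were tested on simulated data.

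The 8 members and all lists were chosen with earlier results of these data known. Named genes were the members, up to 4 genes of highest mean CPM per list, list genes called at an FDR of 0.05, the 3 genes most like each member, *Cpeb2* and *Prdm16*. The lists covered methyl donor supply, arginine and glycine supply, mitochondrial ATP export and phosphotransfer, related phosphatases, and markers of skeletal muscle, brown fat, smooth muscle, neutrophils, endothelium, Schwann cells, lymphocytes and the Y chromosome. Promoter sequences are from RefSeq. The result of 1 list gene is not reported here.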

Additional observations from a re-analysis of the deposited data

Results flagged for a closer look

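With 5 libraries per untreated group, 1 extreme library was marked where its gap to the nearest other library, in log2 CPM with a prior count of 2, exceeded 0.71 of the range of the group. Of 16 groups tested (8 genes in 2 genotypes), 3 had such a library, while chance marks about 1 group in 20. *Gamt* in WT mouse 4, at 4.38 CPM, was the highest of its group with a gap of 0.788 of the range. *Slc6a8* in WT mouse 2, at 32.3 CPM, was the highest with a gap of 0.739, and *Slc6a8* in the library labelled KO 4, at 12.4 CPM, was the lowest with a gap of 0.752.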

How the results depend on the processing

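No member was called under any alternative run, and of 688 alternative values for 33 log2 fold changes 638 kept their direction and side of the threshold while 50 turned direction, 33 of them with 1 library left out. The cause was not tested.

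With limma-voom, *Ckb* turned to -0.13 for KO against WT with AAV-GFP, to -0.13 with AAV-PRDM16, to -0.13 averaged over viruses and to -0.0019 in the interaction. It also gave *Ckmt2* -0.35 and *Alpl* 0.030 in untreated KO, *Gatm* -0.031 and *Slc6a8* -0.049 for genotype averaged over viruses, and *Alpl* -0.056 for the virus in KO. *Alpl* in untreated KO was 0.033 by DESeq2, 0.033 by RLE scaling, 0.069 by upper-quartile scaling, 0.0098 without the mitochondrial genome and 0.031 in libraries with Y-linked transcripts, where *Gatm* was 0.54. This subset held 1 KO library, assumed to vary like the 3 WT libraries. Over all untreated libraries, the difference of *Alpl* in mean log2 CPM was 0.034 with RLE scaling and 0.13 per library total. For the virus in KO that of *Alpl* was -0.0057 per library total. Without the 4 libraries richest in muscle transcripts, a choice made after seeing the data, *Ckmt2* was -0.79 and *Slc6a8* -0.25.

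Leaving out 1 library gave *Ckb* values from -0.28 to 0.46 (KO against WT with AAV-GFP), -0.36 to 0.68 (with AAV-PRDM16), -0.15 to 1.10 (virus in KO), -0.067 to 0.46 (genotype average) and -0.59 to 0.66 (interaction). For *Alpl* they ran from -0.29 to 0.31 (untreated), -0.55 to 0.041 (KO against WT with AAV-GFP), -0.14 to 0.24 (virus in KO) and -0.49 to 0.052 (KO + AAV-PRDM16 against WT + AAV-GFP). *Gatm* ran from -0.33 to 0.080 (untreated) and -0.10 to 0.34 (genotype average), *Gamt* from -0.14 to 0.24 (genotype) and -0.20 to 0.19 (virus), and *Slc6a8* from -0.10 to 0.18 (genotype) and -0.25 to 0.038 (virus). The log2 ratio of *Ckm* to *Ckb* in untreated KO minus WT ran from 0.20 to 3.23, and that of *Ckmt2* to *Ckb* from -0.84 to 2.77.

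Counts over all genes differed more. DESeq2 called 243 genes for KO against WT with AAV-GFP, 619 with AAV-PRDM16, 152 and 266 for the virus in WT and in KO, 157 for KO + AAV-PRDM16 against WT + AAV-GFP, 1584 for genotype averaged, 602 for virus averaged and 1 for the interaction, beside 10, 9, 0, 0, 1, 412, 7 and 0 by edgeR. With 1 library left out, edgeR called 0 to 8 genes for KO against WT with AAV-GFP, 0 to 15 with AAV-PRDM16, 89 to 590 for genotype averaged and 0 to 352 for virus averaged. Same-numbered libraries did not deviate together (r from -0.29 to 0.11 over 5 untreated pairs and from -0.09 to 0.15 over 18 AAV pairs), so the numbers were not taken as pairs. The replicate block left 0 members called in any comparison and gave *Ckb* 1.03 in untreated KO (edgeR FDR = 0.200). An exact test of 1 AAV group of 3 against another cannot go below 0.1, and one averaged over both viruses or genotypes not below 0.005, and *Ckm*, *Ckmt1* and *Ckmt2* had too few reads there for a fold change.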
